A study of Mus musculus with 6 samples.

Results

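The genes examined here encode the ESCRT machinery around Vps37b, and they were followed in lung group 2 innate lymphoid cells (ILC2s) of mouse neonates by SMART-seq, a low-input RNA sequencing method. ESCRT complexes act in sequence on endosomes. They gather ubiquitin-tagged membrane receptors, bend the membrane inwards and cut off vesicles that carry the receptors to the lysosome, and the same machinery closes the cell membrane at the end of division. In lymphocytes this route removes antigen and cytokine receptors from the surface. The set holds 10 of the 55394 genes in the files and was chosen by its place around Vps37b, a gene selected on its lower level in the Abx libraries measured here. The change of Vps37b between the groups is therefore a description and carries no test. The other 9 genes were listed as its paralogues (Vps37a, Vps37c) and partners (Tsg101, Vps28, Mvb12a, Mvb12b, Hgs, Stam, Chmp4b), and the question was whether they fell with it.

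There were 6 libraries, each from 1000 sorted lung ILC2s of wild-type C57BL/6 pups. For the Abx group (n = 3), dams drank a cocktail of ampicillin, metronidazole, neomycin and vancomycin from gestation day 10 to 14, and for the control group (Con, n = 3) they did not. The cells were sorted as lineage-negative cells bearing CD45, CD90.2 and CD25, and neither the age in days of these pups nor how many were pooled per library is given in the sources used here. Levels are FPKM, a fragment number divided by transcript length and by library size, so genes can be compared with each other per length.

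Total FPKM per library was 420941 to 489262. In Con libraries 8574 to 9203 genes reached 1 FPKM and in Abx libraries 7074 to 8193, fewer in every Abx library. Genes above 0 FPKM numbered 13166 to 14121 in Con and 13047 to 14878 in Abx. The part of this gap in genes at low levels was not tested. The depth in reads is unknown and intervals for counting error could not be formed. The 10 fixed ILC2 markers gave a sum of 1920 to 2314 FPKM for Con and 1643 to 2179 FPKM for Abx. Gata3, the lineage's defining transcription factor, was at 33.9 FPKM or more in every library, while Il1rl1, the IL-33 receptor, did not exceed 2.94 FPKM. Areg, the amphiregulin gene of the same list, was at 657 to 783 FPKM for Con, against 197 to 393 FPKM for Abx, a fitted difference of -1.40 (limma adjusted p = 0.0911). The X-inactivation transcript Xist was at 3.78 to 5.09 FPKM in Con and listed at 0 in Abx, and the Y-linked Eif2s3y was at 0.03 to 0.86 FPKM for Con, against 11.8 to 24.4 FPKM for Abx. Ddx3y, also Y-linked, reached 5 FPKM in 2 of the 3 Abx libraries and at most 0.38 FPKM in Con. Pup sex and Abx exposure therefore cannot be told apart in any comparison below.

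Vps37b carries the subunit that joins Tsg101 and Vps28 into the ESCRT-I rod. The gene (ENSMUSG00000066278) lies on the minus strand of chromosome 5 from 124004641 to 124032270 in GRCm38 and has 1 coding transcript of 3 in GENCODE M21. The 3 Con libraries held 945, 1082 and 1113 FPKM of it, the 3 Abx libraries 369, 308 and 378 FPKM. All Abx libraries lay below all Con libraries, and within each group the highest value was at most 1.23 times the lowest. The Con mean was 1047 ± 89.5 FPKM (SD, n = 3) and the Abx mean 352 ± 37.9 FPKM (SD, n = 3), a 2.97-fold lower level. On the log2(FPKM + 1) scale the fitted difference was -1.57 (standard error 0.18).

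Vps37b was among the most abundant transcripts of these cells. Ranked by FPKM over all genes, it held place 54 to 64 in the Con libraries and place 149 to 215 in the Abx libraries. It took 0.21% to 0.264% of total FPKM in Con and 0.063% to 0.0877% in Abx. Of the 668 genes tested with a mean of at least 100 FPKM, 14 had a lower fitted difference. In bulk libraries such as these, fewer cells that express a gene and less RNA per cell cannot be told apart.

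**Figure D1:**
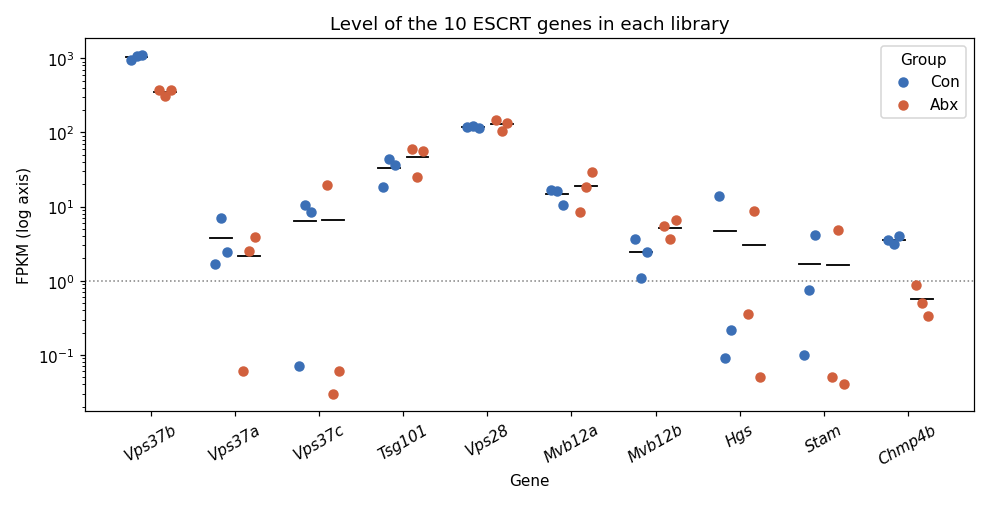
FPKM of the 10 ESCRT genes (log axis) in each library, with Con in blue and Abx in orange, black bars for group means and a dotted line at 1 FPKM. Vps37b and Chmp4b are the 2 genes whose groups do not overlap, at about 1047 against 352 FPKM and 3.58 against 0.573 FPKM.

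The level of the paralogues was far lower in both groups. Vps37a and Vps37c encode subunits that can take the same position in ESCRT-I. Vps37a (chromosome 8) was at 1.67, 7.11 and 2.42 FPKM across Con libraries, against 0.06, 2.56 and 3.89 FPKM across Abx libraries. The groups overlapped, and Abx library 1 was the only library under 1 FPKM. Its fitted difference was -0.67 (standard error 0.83, limma adjusted p = 0.836), with a 95% interval from -2.61 to 1.27. It was -0.01 without Abx library 1 and -1.11 without Abx library 3.

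Vps37c (chromosome 19) was at 0.07, 10.6 and 8.59 FPKM among controls, compared with 19.6, 0.03 and 0.06 FPKM among Abx libraries. Near-zero values thus stood beside values of 8 FPKM or more in both groups, and Abx library 1 held the highest level of all. The fitted difference was -0.80 (standard error 1.45, limma adjusted p = 0.887), and its 95% interval, from -4.16 to 2.56, was too wide to separate a fall of the size seen in Vps37b from a rise. It was -2.23 without Abx library 1 and -0.07 without Abx library 2. The remaining paralogue Vps37d was listed at 0 in all 6 libraries.

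Vps37b made up 98.4% to 99.8% of the summed FPKM of the 4 Vps37 genes in Con and 94.9% to 99.2% in Abx. Vps37a and Vps37c together reached 1.74, 17.7 and 11 FPKM for Con, while Abx libraries had 19.7, 2.59 and 3.95 FPKM. Their highest sum in Abx, 19.7 FPKM, was small beside the drop of the Vps37b mean from 1047 to 352 FPKM. The summed family level was 947 to 1124 FPKM for Con and 311 to 388 FPKM for Abx.

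The core partners showed no such fall. Tsg101 encodes the ubiquitin-binding subunit of ESCRT-I, also bound by the retroviral Gag protein during budding. On chromosome 7, it was at 18.2, 43.5 and 36.9 FPKM across Con libraries, against 60.5, 25.1 and 55.5 FPKM across Abx libraries. The groups overlapped, with Con library 1 lowest and Abx library 1 highest. The fitted difference was 0.50 (standard error 0.49, limma adjusted p = 0.774), with a 95% interval from -0.64 to 1.63. It was 0.13 without Con library 1 and 0.89 without Abx library 2.

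Vps28, which encodes the subunit that contacts ESCRT-II, was the most abundant of the other 9 genes in every library. The gene lies on chromosome 15. Its levels were 120, 121 and 114 FPKM among controls, compared with 147, 106 and 134 FPKM among Abx libraries, so Abx library 2 was below and the other 2 Abx libraries above all of Con. The fitted difference was 0.11 (standard error 0.23, limma adjusted p = 0.899), turning to -0.06 under quantile normalization. Its 95% interval ran from -0.42 to 0.64, so it did not reach a 2-fold change in either direction.

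Ratios within a library do not depend on how the library was scaled. Vps37b stood at 7.87, 8.92 and 9.8 times Vps28 across Con libraries, against 2.51, 2.9 and 2.82 times Vps28 across Abx libraries. The ratio of Vps37b to Tsg101 was 51.8, 24.9 and 30.2 across Con libraries, against 6.09, 12.3 and 6.81 across Abx libraries. Both ratios have Vps37b as numerator, so their lower values in Abx restate its selection and are a description. The ratio of Tsg101 to Vps28 did overlap, at 0.152 to 0.358 in Con and 0.237 to 0.414 in Abx. In all 6 libraries the FPKM of Vps37b exceeded that of either partner.

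**Figure D2:**
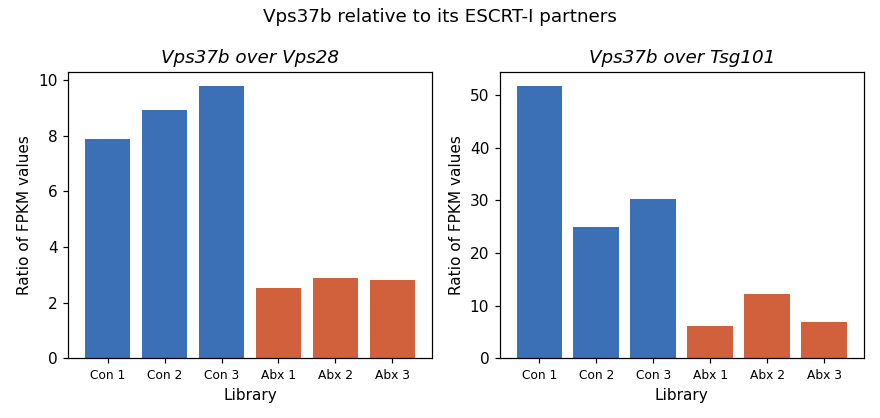
Ratio of Vps37b FPKM to Vps28 FPKM (left) and to Tsg101 FPKM (right) in each of the 6 libraries, Con in blue and Abx in orange. The Abx bars on the left stand at 2.51 to 2.9 and the Con bars at 7.87 to 9.8, a difference that restates the selection of Vps37b.

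The Mvb12 genes encode the remaining ESCRT-I subunit, which binds ubiquitin and membrane. Mvb12a (chromosome 8) was at 16.8, 16.4 and 10.6 FPKM for Con, while Abx libraries had 8.38, 18.3 and 29.4 FPKM. The Abx libraries lay on both sides of Con, and the fitted difference was 0.21 (standard error 0.57, limma adjusted p = 0.925). It was -0.19 without Abx library 3. Mvb12b (chromosome 2) was at 3.71, 1.09 and 2.43 FPKM across Con libraries, against 5.41, 3.67 and 6.59 FPKM across Abx libraries. Of its Abx libraries, 2 were above all of Con and library 2 lay just under the highest Con value. The fitted difference was 0.92 (standard error 0.70, limma adjusted p = 0.708).

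Hgs and Stam form ESCRT-0, which picks up ubiquitin-tagged receptors and recruits ESCRT-I through Tsg101. Hgs (chromosome 11) was at 13.7, 0.09 and 0.22 FPKM among controls, compared with 0.36, 8.8 and 0.05 FPKM among Abx libraries. Stam (chromosome 2) was at 0.1, 0.76 and 4.16 FPKM for Con, while Abx libraries had 0.05, 4.78 and 0.04 FPKM. For each gene 1 library per group was above 1 FPKM and the other 2 were below it. With 2 of 6 libraries at 1 FPKM, neither entered the limma fit. On log2(FPKM + 1) the exact permutation test, two-sided, gave p = 0.8 for Hgs and 0.8 for Stam, where 0.1 is the smallest p that 3 against 3 allow. Values under 0.5 FPKM beside 5 FPKM or more within a group, as for Hgs in both groups, were common. They occurred in 33.2% of all genes tested and in 54.3% of the 3673 with a mean of 2 to 10 FPKM. The groups were not alike in this, with 935 of the 8718 genes tested in Con and 2525 in Abx. In the band of 2 to 10 FPKM the numbers were 698 in Con and 1769 in Abx. Stam, at 4.78 FPKM or less, stayed under the upper limit.

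Chmp4b, which encodes the main filament subunit of ESCRT-III, was the exception among the partners. On chromosome 2 (plus strand, 154651705 to 154694785), it was at 3.51, 3.18 and 4.04 FPKM across Con libraries, against 0.88, 0.5 and 0.34 FPKM across Abx libraries. Every Abx library was below 1 FPKM and every Con library above 3 FPKM. The Con mean was 3.58 ± 0.434 FPKM (SD, n = 3) and the Abx mean 0.573 ± 0.277 FPKM (SD, n = 3). The fitted difference was -1.55 (standard error 0.52, 95% interval -2.76 to -0.34, limma unadjusted p = 0.0186). After Benjamini-Hochberg adjustment over all genes it did not pass (limma adjusted p = 0.281). Chmp4b entered the fit only through the 3 Con libraries, so it had to be lower in Abx to be tested with such values. The difference was -0.76 under quantile normalization, -2.52 with a pseudocount of 0.1 and -2.72 with a pseudocount of 0.01. Its unadjusted limma p was 0.252 with quantile normalization and 0.0511 with the replicate number as a block.

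In all, 8 of the 10 genes passed the filter of 1 FPKM in 3 libraries. Of the 7 other than Vps37b, 0 were called by limma (more than a 2-fold difference with adjusted p below 0.05), thresholds that 5 of the 8718 genes tested met (0.0574%), Vps37b, which was selected on this contrast, among them. At an unadjusted p under 0.05, 1 was lower in Abx (Chmp4b) and 0 were higher, where 6.25% of all genes tested were lower and 4.74% higher. The groups did not overlap in 1 of the 7, again Chmp4b and lower in Abx, where 8.73% of all genes tested were lower without overlap and 8.49% higher. Chmp4b passed the filter only through its 3 Con libraries, which fixed its direction and its lack of overlap. Neither count is therefore separate support for a fall of Chmp4b. The median fitted difference of the 7 genes was 0.11, with 4 higher and 3 lower, and that of all genes tested was -0.06. By library, the median of the 7 relative to the Con mean was -0.02, 0.18 and 0.09 across Con libraries, against 0.31, -0.24 and 0.22 across Abx libraries. The 95% intervals of Vps28, Tsg101, Mvb12a and Mvb12b lay above -1.57, the fitted difference of Vps37b, while those of Vps37a, Vps37c and Chmp4b included it. That mark belongs to a gene selected on this contrast and has an interval of its own, from -1.98 to -1.16. The interval of Mvb12a began just above that range, at -1.12.

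**Figure D3:**
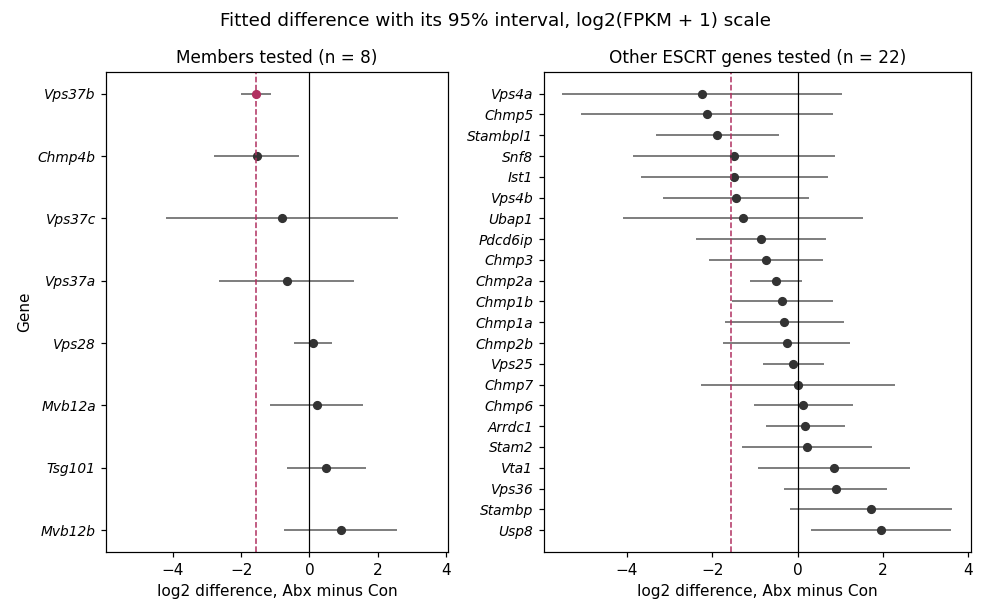
Fitted difference between Abx and Con on the log2(FPKM + 1) scale with its 95% interval, for the 8 members tested (left) and the 22 other ESCRT genes tested (right). The solid line marks 0 and the dashed red line the value of Vps37b, -1.57. The intervals of Vps28, Tsg101, Mvb12a and Mvb12b do not reach the dashed line.

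The question was carried to the 27 further ESCRT genes of a fixed list, of which 22 were tested. Of the 22, 0 were called by limma, where 0.0574% of all genes tested were called. At an unadjusted p under 0.05, 1 gene was lower (Stambpl1) and 1 higher (Usp8), near the 6.25% and 4.74% of all genes tested. The median fitted difference was -0.34, with 8 genes higher and 14 lower. For all genes tested it was -0.06, with 4097 higher and 4621 lower. Some of the lower genes, such as Chmp5, Vps4a, Ubap1 and Snf8, had an Abx library at 0.62 FPKM or less. Of the higher genes, Stambp was at 0 in Con library 1. The part of such values in the median was not tested. The groups did not overlap in 4 of the 22, with Chmp2a, Vps4b and Stambpl1 lower and Usp8 higher in Abx. These shares are to be read against the 8.73% and 8.49% of all genes tested.

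Usp8 and Stambpl1 both encode deubiquitinases, which strip ubiquitin from receptors at the endosome. Usp8 was at 7.88, 2.51 and 3.27 FPKM among controls, compared with 35.9, 11.8 and 15.5 FPKM among Abx libraries (fitted difference 1.96, standard error 0.70, limma adjusted p = 0.323). Stambpl1 was at 4.69, 3.79 and 6.2 FPKM for Con, while Abx libraries had 0.03, 0.76 and 1.14 FPKM (fitted difference -1.89, standard error 0.61, limma adjusted p = 0.256). Its close relative Stambp, which binds Stam, was at 0, 2.59 and 1.05 FPKM across Con libraries, against 11.5, 5.02 and 2.49 FPKM across Abx libraries, with Con library 2 just above the lowest Abx value (fitted difference 1.72, limma adjusted p = 0.496). These 3 values did not pass after adjustment.

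At the early steps, Stam2 and the ESCRT-II genes Snf8, Vps25 and Vps36 overlapped between the groups. Vps36 was at 29.8, 21.7 and 27.4 FPKM among controls, compared with 91.2, 23.4 and 55.6 FPKM among Abx libraries, with Abx library 2 inside the Con range (fitted difference 0.89, limma adjusted p = 0.601). Ubap1, which takes the place of Mvb12 in a specialised ESCRT-I, ranged from 5.75 to 44.3 FPKM among controls, compared with 0.21 to 16.8 FPKM for Abx.

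Of the ESCRT-III genes tested besides Chmp4b, 2 had a higher and 7 a lower fitted difference, with a median of -0.36 and 0 at an unadjusted limma p under 0.05. Of all 8718 genes tested 4097 were higher and 4621 lower, and 6.25% were lower and 4.74% higher at that unadjusted p. A count of 0 among 9 genes is near those shares. Chmp2a, whose product helps to recruit Vps4, was the most abundant of them, at 167, 247 and 150 FPKM for Con, while Abx libraries had 130, 121 and 137 FPKM (fitted difference -0.50, limma adjusted p = 0.534). Chmp5 was at 83.9, 17.1 and 83.8 FPKM across Con libraries, against 0.62, 16.9 and 53.1 FPKM across Abx libraries, with Abx library 1 far below the rest (fitted difference -2.13, limma adjusted p = 0.624). The other Chmp4 gene of the list, Chmp4c, was at 0.01 FPKM or less in every library.

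The Vps4 ATPases take the ESCRT-III filament apart. Vps4b was at 10.2, 9.26 and 9.89 FPKM among controls, compared with 1.57, 2.09 and 6.69 FPKM among Abx libraries, all 3 below Con (fitted difference -1.45, limma adjusted p = 0.534). Vps4a was at 21.7, 18.6 and 9.85 FPKM for Con, while Abx libraries had 0.13, 0.06 and 37.7 FPKM, with Abx library 3 above all of Con (fitted difference -2.24, limma adjusted p = 0.644). Their activator Vta1 had a fitted difference of 0.86 with overlapping groups. Without Abx library 3, 5 of the 22 genes were lower at an unadjusted limma p under 0.05 (Chmp5, Pdcd6ip, Stambpl1, Vps4a and Vps4b) and 2 were higher (Stambp and Usp8), where 8.69% of all genes tested were lower and 5.62% higher in the same fit. Without Abx library 1 the count was 0 in both directions, where 7.38% of all genes tested were lower and 5.26% higher, so the count rests on which library is left out.

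Other endosomal complexes were measured for comparison. The 8 genes of the retromer, which returns receptors to the cell surface, were all tested, with 4 higher, 4 lower and a median of 0.02. Of the HOPS and CORVET genes, which tether endosomes and lysosomes, 5 of 8 were tested, with 3 higher, 2 lower and a median of 0.03. In both lists 0 genes were called by limma and 0 had an unadjusted p under 0.05. Of all genes tested 0.0574% were called, and 6.25% were lower and 4.74% higher at that unadjusted p. Counts of 0 among so few genes are near those shares. Of the genes tested, Vps33a was the 1 whose groups did not overlap, being higher in Abx. Without overlap, 8.49% of all genes tested were higher and 8.73% lower. The other 3 HOPS and CORVET genes were too low to be tested, and those shares do not cover them. Vps18 was at 0.01, 5.12 and 0.01 FPKM for Con and listed at 0 in Abx, so 1 library reached 1 FPKM. Vps8 was at 3.34, 0.65 and 2.39 FPKM for Con, against 0.02, 0.01 and 0.02 FPKM for Abx. Tgfbrap1 was at 0.01, 0.01 and 0.23 FPKM for Con, against 0.74, 0.57 and 1.05 FPKM for Abx. Their groups did not overlap, but the Abx values of Vps18 and Vps8 and the Con values of Tgfbrap1 were at or near the floor. Vps8 reached 1 FPKM in 2 libraries, both Con.

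To see whether the change of Vps37b extended along its chromosome, the 4 protein-coding genes on each side were read. Abcb9, a lysosomal peptide transporter 29.3 kb away, was at 23.1, 12.5 and 16.9 FPKM across Con libraries, against 43, 15.4 and 30.5 FPKM across Abx libraries. Hip1r, an endocytic actin-binding protein whose gene overlaps Vps37b on the opposite strand, was at 0.25, 2.39 and 3.09 FPKM among controls, compared with 0.04, 1.58 and 0.01 FPKM among Abx libraries. SMART-seq libraries do not mark strand, and 39.7% of the 50-base words of the Vps37b transcripts also occur, on either strand, in transcripts of Hip1r and of Gm37939, another entry on the opposite strand. Hip1r did not exceed 3.09 FPKM and Gm37939 did not exceed 7.29 FPKM, where Vps37b was at 308 FPKM or more. The others were Denr, Gm43518, Ccdc62, Ogfod2, Arl6ip4 and Pitpnm2. Of the 8 neighbours 5 were tested, 2 higher and 3 lower, and 0 were called or had an unadjusted limma p under 0.05 (limma adjusted p from 0.643 to 0.89). Of all genes tested 0.0574% were called, and 6.25% were lower and 4.74% higher at that unadjusted p. A count of 0 among 5 genes is near those shares, so it cannot decide whether the change extended along the chromosome.

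Among the 4201 other genes with a mean of at least 10 FPKM, those nearest to Vps37b in profile were Nr4a2, Bambi, Stk17b, Tiparp and Icos, at a root-mean-square distance of 0.17 to 0.24 between centred log2(FPKM + 1) values over the 6 libraries. Nr4a2 (an immediate-early nuclear receptor) was at 119 to 159 FPKM for Con, against 35.6 to 53.7 FPKM for Abx. Tiparp (a mono-ADP-ribosyltransferase induced through the aryl hydrocarbon receptor) was at 145 to 203 FPKM among controls, compared with 38.2 to 62.6 FPKM for Abx. Icos (a costimulatory receptor) was at 240 to 289 FPKM for Con, against 82.4 to 120 FPKM for Abx. Being picked for this likeness, their lower level in Abx is no separate result. On the same measure Vps28 stood at 0.85, place 947, Mvb12a at place 1921 and Tsg101 at place 2242. Chmp4b stood at 0.19, at a level too low to be ranked. That distance belongs to the scale with a pseudocount of 1. Its FPKM means differed 6.24-fold, against 2.97-fold for Vps37b. With a pseudocount of 0.1 its fitted difference was -2.52, while that of Vps37b stayed at -1.57. As Chmp4b entered the fit only through Con, its closeness to Vps37b is no separate result either.

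**Figure D4:**
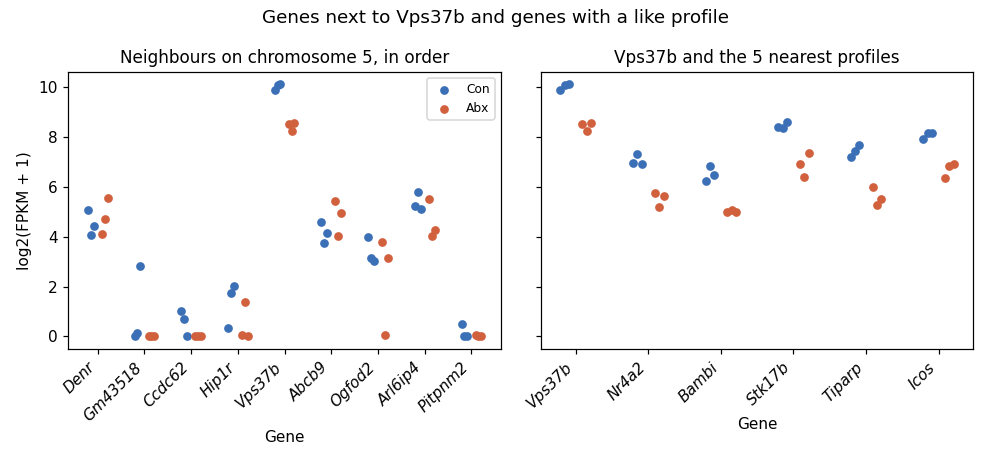
Level in log2(FPKM + 1) of the 4 protein-coding neighbours on each side of Vps37b in chromosome order (left) and of the 5 genes nearest to it in profile (right), one point per library, Con in blue and Abx in orange. The Con and Abx points of the neighbours overlap, while those of Vps37b and of the 5 look-alikes, which were picked for it, do not.

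The summed markers of some other cell types differed between the groups as well. The 8 B cell markers summed to 259 to 305 FPKM among controls, compared with 539 to 596 FPKM for Abx. Of the 6 tested 4 were higher and 2 lower, with Ebf1 under 1 FPKM throughout and Pax5 at 2.33 FPKM or less. The largest part of the rise was Ighm, at 141, 109 and 159 FPKM for Con, while Abx libraries had 423, 358 and 429 FPKM. Cd79b and Cd22 were lower in every Abx library than in any Con library, and Ms4a1 was higher. The 8 T cell markers summed to 126 to 151 FPKM for Con, against 271 to 317 FPKM for Abx, and the 6 NK cell markers to 2.45 to 27.1 FPKM among controls, compared with 215 to 235 FPKM for Abx. The 6 mast cell and basophil markers went the other way, with 414 to 528 FPKM for Con, against 185 to 318 FPKM for Abx. The NK cell sum followed a single gene, Gzma (granzyme A), at 13.8, 10.8 and 0 FPKM for Con, while Abx libraries had 224, 218 and 215 FPKM. The other 5 NK cell markers summed to 0 to 13.3 FPKM among controls, compared with 0 to 11.3 FPKM for Abx, and of the 2 tested 1 was higher and 1 lower. Of the 5 T cell markers tested 4 were higher and 1 lower. Of the NK cell markers Klrb1c, Eomes and Prf1 were under 1 FPKM in every library, as was Mcpt4 of the mast cell markers. The sums of myeloid, neutrophil, epithelial, endothelial, fibroblast and erythroid markers overlapped between the groups. Per the study's methods, ILC2 staining used a lineage cocktail with antibodies to T cell antigens, B220 and NK1.1, directed at T, B and NK cells. For the purity after sorting the methods give only a lower bound. The part of these cells in the levels of Vps37b and Chmp4b was not tested.

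Some members share sequence with other entries. Of the 50-base words of Hgs, 91.3% also occur in a second gene model at the same place (ENSMUSG00000116045), whose level was not analysed here, so the Hgs values are uncertain. For Tsg101 the share was 18.3%, mostly with the pseudogene Tsg101-ps, which was at 0.07 to 0.33 FPKM. It was 0% for Chmp4b, Vps37c, Mvb12a and Mvb12b.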

How the data were processed

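The authors trimmed the SMART-seq reads with Cutadapt, mapped them with HISAT2 and derived FPKM values per gene with StringTie. Their methods name a human Ensembl annotation, whereas the deposited files carry mouse identifiers, of which 55134 of 55394 are in GENCODE M21 (GRCm38). The submitters' processing notes name Bowtie 0.12.2, mm8 and mm9. The build used for mapping is therefore uncertain, and coordinates given are those of GENCODE M21. The deposited FPKM values were used without further scaling. Of the low values 22.4% to 23.4% per library fell near a multiple of the best-fitting read value, where chance gives 20%, so counts were not recovered and the DESeq2 comparison of the authors was not repeated.

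Entries were matched by symbol. The 8718 genes with at least 1 FPKM in 3 libraries were fitted on log2(FPKM + 1) with limma 3.58.1 (R 4.3.3; eBayes with trend, two-sided, Benjamini-Hochberg adjustment), without pairing. The code was tested on simulated data. The named genes are the 10 members, the other ESCRT genes at an unadjusted p under 0.05 or with the 3 largest differences each way, the 4 coding neighbours on each side, the 5 nearest profiles and further ESCRT genes chosen after their values were seen (Stam2, Snf8, Vps25, Ubap1, Chmp2a, Chmp4c, Vps4b, Vta1, Pdcd6ip, Vps37d), with Vps33a likewise. Members and lists were chosen with earlier results of these data known. Nothing says that the libraries came from separate litters, so p-values measure only the spread between these libraries. Pseudocounts, normalizations, filters, robust variance, left-out libraries and a replicate block were tried as alternatives. Tables and figures were made in Python 3.11.15 (pandas 2.3.3, numpy 2.4.6, matplotlib 3.10.9).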

Additional observations from a re-analysis of the deposited data

How the results depend on the processing

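The fitted difference of Vps37b ranged from -1.64 to -1.48 when each library was left out in turn. The number of genes called fell from 5 to 0 with a pseudocount of 0.1, a pseudocount of 0.01, no filter on low values or the replicate block, was between 0 and 2 with a library left out, and was 814 with an unadjusted p. With the pseudocount of 0.01, quantile normalization, no filter, a mean of at least 5 FPKM (which removes Chmp4b) or the replicate block, 0 of the other members had an unadjusted p under 0.05, and with a library left out 0 to 1 did. Of the other ESCRT genes 1 did with the pseudocount of 0.01, 4 with quantile normalization and 1 at a mean of at least 5 FPKM, and 0 to 7 with a library left out. The median of the other members was -0.16 with no filter, which adds Hgs and Stam, and -0.09 to 0.14 with a library left out. Vps28 turned to -0.06 under quantile normalization and Mvb12a ranged from -0.19 (without Abx library 3) to 0.66 with a library left out. With a library left out Vps28 ranged from 0.01 to 0.25 and Mvb12b from 0.6 to 1.19. Vps37a and Vps37c were at -1.79 and -2.35 with the pseudocount of 0.01 and at -0.24 and -0.54 under quantile normalization. For these the cause was not tested. The labels number replicates 1 to 3 in both groups, but deviations of same-numbered libraries correlated at only -0.029 to 0.01, and in 0 of 3 numbers did a library correlate best with its own. None of the other members had an adjusted limma p under 0.05 under any alternative run. The lowest was 0.284, for Chmp4b. The depth is unknown, so near-zero values cannot be told from too few reads.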
